A study of Homo sapiens with 8 samples.

Results

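The genes described are 10 parts of the machinery that starts anaphase: the coactivators CDC20 and FZR1 of the anaphase-promoting complex (APC/C), its ubiquitin-conjugating (E2) enzymes UBE2C and UBE2S, 3 of its subunits (CDC27, CDC16 and ANAPC11), its inhibitor FBXO5, and securin (PTTG1) with the protease it holds back, separase (ESPL1). They were chosen by gene symbol, and all 10 were found among the 58735 Ensembl gene identifiers of the count files. Earlier results of these data were known when these genes and the gene lists below were chosen. The study sequenced RNA of 22Rv1, an established human castration-resistant prostate cancer cell line. The control group (4 libraries) received DMSO, the solvent, and the MARK3i group (4 libraries) received PCC0208017, which the submitters describe as an inhibitor of the kinase MARK3. Dose and duration were not given in the sources used here. Both groups are the same line with no other stated alteration, and no second way of blocking MARK3 was part of the series, so effects of MARK3 inhibition and other effects of the compound cannot be told apart.

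The APC/C is a ubiquitin ligase built of many subunits. With CDC20 bound it marks securin and cyclin B for destruction once every chromosome is attached to the spindle. Securin's loss frees separase, which cuts the cohesin ring that holds sister chromatids together. FZR1, also called CDH1, takes over from CDC20 late in mitosis and keeps the complex active through G1, until FBXO5, also called EMI1, blocks it on entry to S phase. Many genes of this system are themselves transcribed mostly in G2 and mitosis, so in proliferating cells their mRNA also follows how cells are spread over the cell cycle.

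Total counts were 12672817 to 13386143 in the 4 control libraries and 13517289 to 21271127 in the 4 MARK3i libraries, and the members had between 358 and 12282 counts in a library. Whether each replicate came from its own culture is not stated in the labels, and the p-values cover only the variation among these libraries, which could be technical. The epithelial markers KRT8 (591.6 CPM in controls and 552.6 in MARK3i), KRT18 (417.9 and 306.9) and EPCAM (97.79 and 99.96) were high in both groups. The prostate markers SLC45A3, KLK2 and TMPRSS2 were present at 89.49, 62.15 and 85.7 CPM in controls and were lower after treatment (16.72, 5.664 and 7.347 CPM). Of 9 markers of leukocytes, fibroblasts and endothelium, 3 (CD3E, PECAM1 and CDH5) were at 0 in every library and 5 had at most 9 counts in any library. The remaining one, the collagen gene COL1A1, rose from 11.35 ± 2.20 to 18 ± 3.04 CPM (SD, n = 4), and the summed level of the 9 markers went from between 9.584 and 14.43 to between 14.29 and 21.98 CPM. Their part in the results below was not tested.

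Securin, CDC20, both E2 enzymes and the subunits CDC27 and CDC16 were higher in treated cells, and separase and FZR1 were lower, the last with a sign that turned under correction for GC content. All changes were moderate, from 1.68-fold higher (CDC27) to 1.31-fold lower (ESPL1). All 10 members passed the filter on low counts. Of these, 6 were called higher, 2 lower and 2 (ANAPC11 and FBXO5) did not pass, by edgeR's quasi-likelihood test at an adjusted p under 0.05 over all tested genes. Among all 16452 genes tested, 58.0% were called, 29.8% higher and 28.3% lower, so a call by itself was common in this experiment. The MARK3i libraries lay wholly above the controls for 6 members and wholly below for 2, where 51.0% of all tested genes had groups that did not overlap (25.8% above and 25.1% below). The members' median log2 fold change was 0.25, against 0.02 over all tested genes. Levels are CPM, the gene's share of a library's counts with TMM-scaled totals, and every change is MARK3i minus control on the log2 scale, ± SE, with 4 libraries per group. The libraries are bulk cultures, in which fewer cells in a phase and less RNA per cell cannot be told apart.

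**Figure D1:**
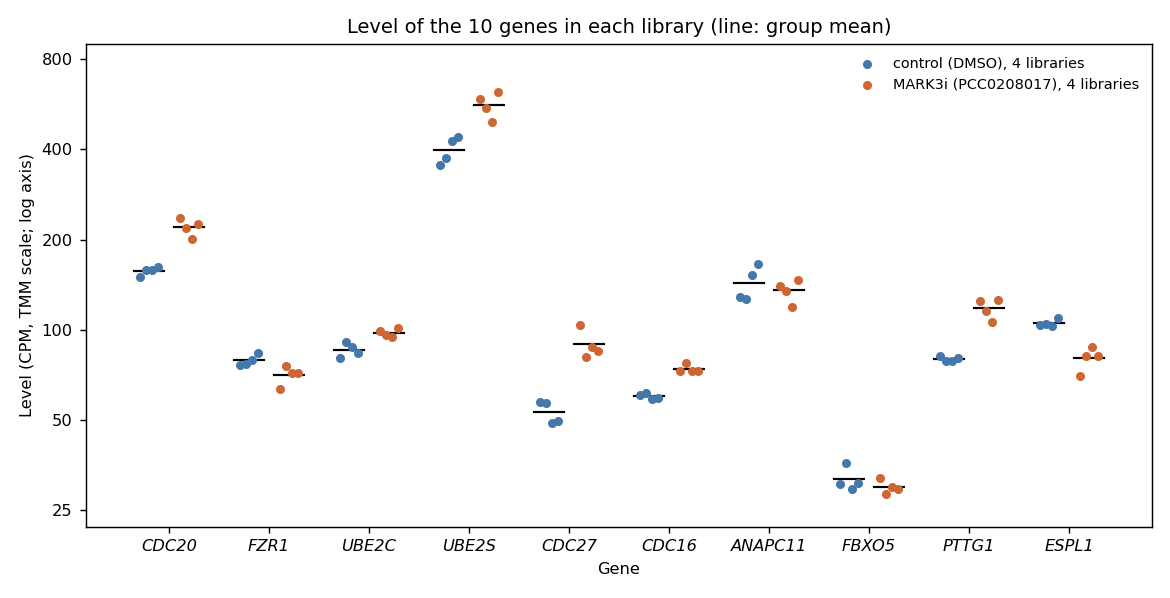
Level of each of the 10 genes (CPM on the TMM scale, log axis) in the 4 control and 4 MARK3i libraries, with a line at each group mean. The groups separate for all genes but ANAPC11 and FBXO5, upward for 6 and downward for ESPL1 and for FZR1, whose sign turned with GC offsets.

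The promoters of CDC20, PTTG1 and ESPL1 are shown because mitotic genes of this kind are commonly controlled through the cell cycle homology region (CHR) and CCAAT boxes near the start site, and because CDC20 and PTTG1 rose while ESPL1 fell. Each line gives the 200 bases before the annotated start, 5′ to 3′ on the gene's strand, from RefSeq (GRCh38.p14, whose coordinates are those of hg38), with matches to the searched motifs in capitals.
CDC20, chr1:43358781-43358980, plus strand: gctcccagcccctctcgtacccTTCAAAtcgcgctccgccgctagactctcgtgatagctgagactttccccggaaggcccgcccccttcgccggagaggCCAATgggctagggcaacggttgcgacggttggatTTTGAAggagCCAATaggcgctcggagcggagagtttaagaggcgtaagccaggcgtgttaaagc
PTTG1, chr5:160421655-160421854, plus strand: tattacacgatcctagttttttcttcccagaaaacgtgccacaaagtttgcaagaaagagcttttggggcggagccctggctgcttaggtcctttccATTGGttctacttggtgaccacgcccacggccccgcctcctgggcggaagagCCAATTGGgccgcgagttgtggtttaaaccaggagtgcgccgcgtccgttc
ESPL1, chr12:53268099-53268298, plus strand: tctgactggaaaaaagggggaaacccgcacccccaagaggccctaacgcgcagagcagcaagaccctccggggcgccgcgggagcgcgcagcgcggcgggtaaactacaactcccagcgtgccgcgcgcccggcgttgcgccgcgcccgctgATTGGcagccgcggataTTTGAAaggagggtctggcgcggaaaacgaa

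The motifs searched on both strands were TTTGAA and TTCGAA for the CHR, CCAAT for the CCAAT box, and TTTCCCGC, TTTGGCGC, TTTCGCGC and TTTGCCGC for E2F, in windows from 250 bases before to 50 after the start. CDC20 held a CHR match at −65 to −60 between CCAAT matches at −100 to −96 and −55 to −51, and a further CHR match on the opposite strand at −178 to −173. ESPL1 held a CHR match at −31 to −26 and a reverse CCAAT match at −48 to −44. PTTG1 held 3 CCAAT matches, of which a forward one (−51 to −47) and a reverse one (−48 to −44) overlap. It held no match to the 2 CHR strings, the only forms of the CHR that were searched. So CDC20, which rose, and ESPL1, which fell, share the pairing of CHR and CCAAT matches close to the start.

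Of the 9 members with a window, 3 (CDC20, ESPL1 and FZR1, the last at −226 to −221) held a CHR match, 7 held a CCAAT match and 1, CDC16, an E2F match at −74 to −67. Among all 35116 windows in the RefSeq table, 16.4% held a CHR match, 34.6% a CCAAT match, 3.31% an E2F match and 6.38% both CHR and CCAAT. The window of FBXO5 held none of these strings. Where RefSeq gave several windows for a member, the one whose start was nearest to the GENCODE start was taken. This left out 6 windows of 4 members (ANAPC11, FBXO5, FZR1 and PTTG1), of which 1 held a CHR match, 4 a CCAAT match and 0 an E2F match. The second window of FBXO5, with its start 538 bases downstream, held 1 CHR and 4 CCAAT matches, so the absence holds for the first window alone. UBE2C was not among the windows. These are matches of letters in fixed windows and carry no measure of binding.

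**Figure D2:**
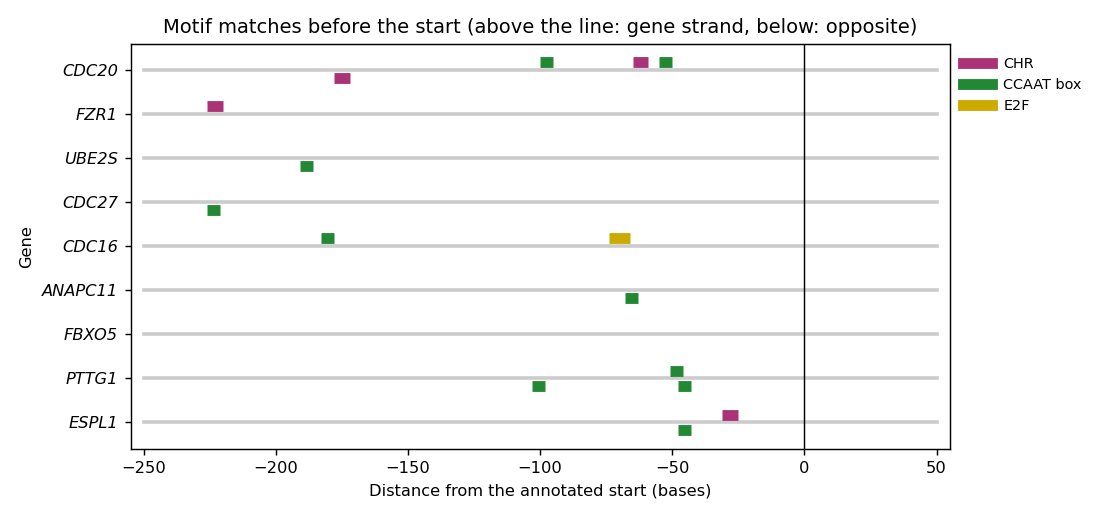
Positions of CHR, CCAAT and E2F matches from 250 bases before to 50 after the annotated start of 9 members, with the gene's strand above each line and the opposite strand below. CDC20 and ESPL1 have CHR and CCAAT matches together within the last 65 bases before the start.

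The mitotic coactivator CDC20 rose, while the G1 coactivator FZR1 was slightly lower, a call that several alternatives ended. CDC20 (ENSG00000117399; chromosome 1, 43358981 to 43363203, hg38, plus strand) stood at 150.4, 158.8, 158.5 and 161.8 CPM in control replicates 1 to 4 and at 235.9, 219.1, 201.0 and 226.4 CPM in MARK3i replicates 1 to 4. Every treated library lay above every control, and MARK3i replicate 3 was the lowest of the treated. The change was 0.49 ± 0.06 (adjusted p = 1.01e-07), or 1.40-fold. FZR1 (ENSG00000105325; chromosome 19, 3506311 to 3538334, plus strand) stood at 76.51, 77.15, 79.21 and 83.71 CPM in controls and at 63.23, 75.78, 71.74 and 71.77 CPM in treated libraries. The groups did not overlap, but the highest treated library was within 1 CPM of the lowest control. The change was −0.16 ± 0.07 (adjusted p = 0.038). This call ended with total-count scaling (−0.06, adjusted p = 0.501) and without any one of control replicates 3 and 4 and MARK3i replicates 1 and 4 (adjusted p 0.0588 to 0.116), and the sign turned with GC offsets, which take out any trend of a library with transcript GC (0.06, adjusted p = 0.314). FZR1 shares 74 exonic bases with MFSD12 on the opposite strand, which fell (−0.38 ± 0.07), and the strand setting of the counting was not given in the sources used here.

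Within a library, the ratio of 2 genes' counts does not depend on how libraries are scaled. The log2 ratio of CDC20 to FZR1 counts was 0.97, 1.04, 1.0 and 0.95 in controls and 1.90, 1.53, 1.49 and 1.66 in treated libraries. Its mean moved from 0.99 ± 0.04 to 1.64 ± 0.19 (SD, n = 4), so CDC20 had 1.99 counts per FZR1 count in controls and 3.12 in treated cells. The treated ratios lay above all controls and were spread more widely, with MARK3i replicate 1 the highest.

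The E2 enzymes were both higher, UBE2S by more than UBE2C. UBE2C starts ubiquitin chains on APC/C substrates, and UBE2S extends them. UBE2C (ENSG00000175063; chromosome 20, 45812576 to 45816957, plus strand) stood at 80.43, 90.77, 87.41 and 83.71 CPM in controls and 98.92, 95.87, 94.99 and 101.1 CPM in treated libraries. Its groups did not overlap, and the change was small, 0.19 ± 0.06 (adjusted p = 0.00882, up to 0.0434 over the alternatives). UBE2S (ENSG00000108106; chromosome 19, 55399745 to 55407788, minus strand) stood at 355.6, 374.7, 427.9 and 439.3 CPM in controls and at 589.8, 552.1, 494.3 and 623.7 CPM in treated libraries. All treated libraries were above all controls, among which replicates 1 and 2 were lower than 3 and 4. The change was 0.50 ± 0.07 (adjusted p = 3.90e-06). The log2 ratio of UBE2C to UBE2S counts was −2.22 ± 0.15 in controls and −2.53 ± 0.11 in treated libraries. These ratios overlapped, because MARK3i replicate 3 (−2.38) was above control replicate 4 (−2.39).

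Reads of near-identical copies touched the E2 genes more than the other members. The UBE2S pseudogenes UBE2SP1 (0.58 ± 0.19, adjusted p = 0.0118) and UBE2SP2 (0.70 ± 0.27, adjusted p = 0.0295) also rose, with at most 1.71% and 0.426% of the UBE2S counts. UBE2CP5 had 28 to 48 counts, at most 3.89% of those of UBE2C, and did not pass (−0.41 ± 0.20, adjusted p = 0.0797). With all copies added to their parents, UBE2C changed by 0.17 (adjusted p = 0.0148) and UBE2S by 0.50. The securin copies PTTG2 and PTTG3P and the CDC27 pseudogenes had at most 1 count in any library, and CDC20P1 at most 6. The gene body of UBE2S overlaps the ribosomal protein gene RPL28 on the opposite strand, with 0 shared exonic bases, and RPL28 did not pass (−0.03 ± 0.06, adjusted p = 0.745).

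Securin rose and separase fell. PTTG1 (ENSG00000164611; chromosome 5, 160421855 to 160428739, plus strand) was at 81.91, 78.49, 78.88 and 80.28 CPM in controls and at 124.4, 115.6, 106.6 and 125.5 CPM in treated libraries. The controls lay within 4 CPM of one another and all treated libraries were above them, for a change of 0.56 ± 0.06 (1.48-fold, adjusted p = 3.45e-08). ESPL1 (ENSG00000135476; chromosome 12, 53268299 to 53293638, plus strand) was at 104.0, 104.7, 102.9 and 109.2 CPM in controls and at 70.34, 82.03, 87.85 and 81.52 CPM in treated libraries. All treated libraries were below all controls, with MARK3i replicate 1 the lowest. The change was −0.39 ± 0.07 (1.31-fold lower, adjusted p = 1.94e-05). It was smaller with total-count scaling (−0.28, adjusted p = 0.00157) and with GC offsets (−0.26, adjusted p = 0.000174).

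In counts, securin rose relative to separase, its binding partner. The log2 ratio of PTTG1 to ESPL1 counts was −0.34, −0.42, −0.38 and −0.44 in controls and 0.82, 0.49, 0.28 and 0.62 in treated libraries. It was below 0 in every control and above 0 in every treated library. The means were −0.40 ± 0.04 and 0.55 ± 0.23 (SD, n = 4), which is 0.759 PTTG1 counts per ESPL1 count in controls and 1.47 in treated cells. The separase transcript is longer than that of securin, and counts were not divided by length, so these ratios are not ratios of molecules. Per kilobase of exon, PTTG1 was above ESPL1 in both groups. It stood at 40.5 against 11.8 CPM in controls and at 59.8 against 9.05 CPM in treated cells. The crossing of 0 is thus one of raw counts only.

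**Figure D3:**
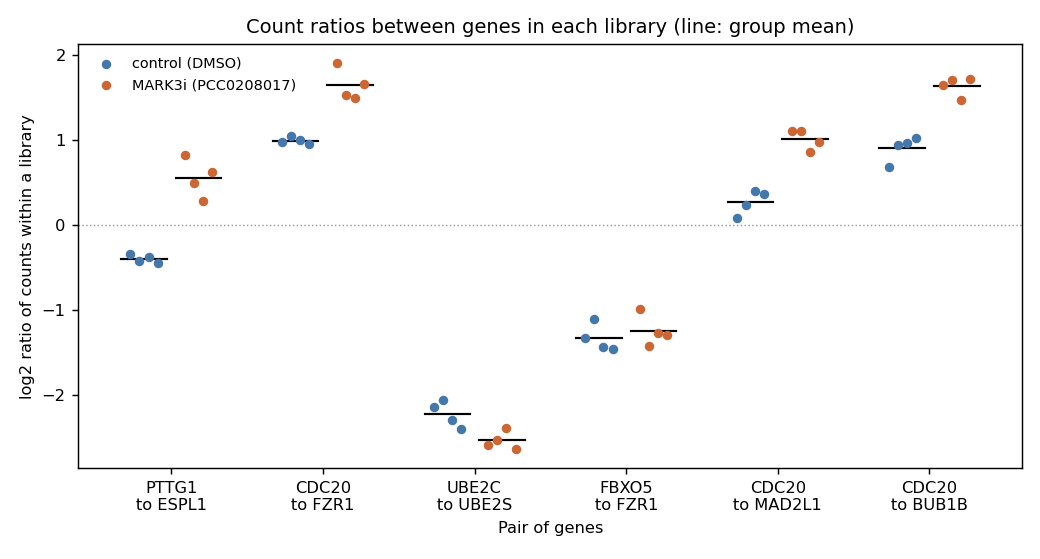
Log2 ratios of counts between pairs of genes within each of the 8 libraries, with a line at each group mean. PTTG1 to ESPL1 is below 0 in the 4 controls and above 0 in the 4 MARK3i libraries, and CDC20 rose relative to FZR1, MAD2L1 and BUB1B. Counts are not divided by length, and per kilobase of exon PTTG1 was above ESPL1 in both groups.

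The 3 subunits did not move together. CDC27 and CDC16 are scaffold subunits of the arm that binds the coactivators, and ANAPC11 is the RING subunit that carries the ligase activity. CDC27 (ENSG00000004897; chromosome 17, 47117703 to 47189422, minus strand) rose from 57.56, 56.87, 49.04 and 49.77 CPM in controls to 103.9, 81.36, 87.92 and 85.05 CPM in treated libraries. It had the largest change of the members, 0.75 ± 0.08 (1.68-fold, adjusted p = 1.22e-08), or 0.61 with GC offsets, and its groups did not overlap. CDC16 (ENSG00000130177; chromosome 13, 114234887 to 114272723, plus strand) rose from 60.53, 61.62, 58.55 and 59.21 CPM to 72.71, 77.31, 72.65 and 72.67 CPM, a change of 0.30 ± 0.06 (adjusted p = 0.000179). Its controls were within 4 CPM of one another and again below all treated libraries.

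ANAPC11 (ENSG00000141552; chromosome 17, 81890790 to 81900991, plus strand) was at 128.7, 126.3, 152.0 and 166.3 CPM in controls and 140.4, 134.9, 119.5 and 146.4 CPM in treated libraries. The controls alone spanned nearly the whole range, replicates 1 and 2 low and 3 and 4 high, and the treated libraries fell among and below them. It did not pass (−0.08 ± 0.08, adjusted p = 0.389). The sign turned with total-count scaling (0.02) and GC offsets (0.05), so no direction is given. ANAPC11 overlaps ALYREF (62 shared exonic bases) and PCYT2 (34) on the opposite strand, both of which fell (−0.66 ± 0.06 and −0.59 ± 0.06).

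The other subunits moved in both directions. Of 11 further APC/C subunit genes, 3 were higher and 4 lower, and the median change was −0.01. Among all tested genes 29.8% were higher and 28.3% lower, so these counts were close to the common shares. ANAPC4, a platform subunit, rose from 25.36 ± 2.09 to 32.96 ± 1.93 CPM (0.38 ± 0.08). ANAPC16 rose from 133.1 ± 4.98 to 159.8 ± 8.13 CPM (0.26 ± 0.06), and ANAPC10, which helps to bind substrates, from 4.027 ± 0.333 to 6.437 ± 0.813 CPM (0.67 ± 0.15). ANAPC7 fell from 124.4 ± 3.37 to 105.8 ± 1.77 CPM (−0.23 ± 0.06). CDC23, of the same arm as CDC27 and CDC16, fell from 70.92 ± 3.88 to 61.24 ± 2.47 CPM (−0.21 ± 0.06). ANAPC15, which promotes release of the checkpoint complex, fell from 11.06 ± 0.896 to 8.734 ± 0.271 CPM (−0.34 ± 0.11). Under total-count scaling, which moved the median of all tested genes from 0.021 to 0.126, 5 of the 11 were higher and 1 was lower, so the falls are stated relative to the TMM scale. The summed level of the 11 genes was 878.8 to 909.5 CPM in controls and 872.7 to 901.1 CPM in treated libraries.

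**Figure D4:**
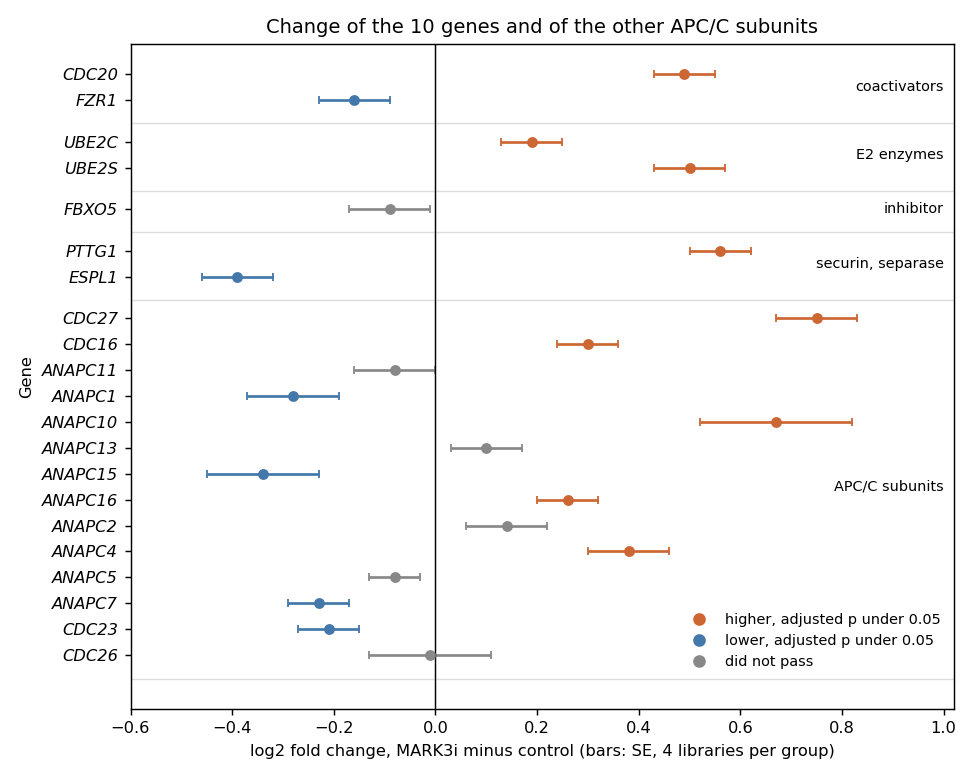
Log2 fold change (MARK3i minus control, with SE, 4 libraries per group) of the 10 genes and of 11 further APC/C subunits, coloured by the call at an adjusted p under 0.05. Subunits lie on both sides of 0, from ANAPC15 (−0.34) to CDC27 (0.75).

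The inhibitor FBXO5 did not pass. FBXO5 (ENSG00000112029; chromosome 6, 152970519 to 152983579, minus strand) was at 30.46, 36.04, 29.36 and 30.74 CPM in controls and at 31.93, 28.32, 29.77 and 29.32 CPM in treated libraries. Control replicate 2 was the highest of all 8 libraries and the remaining values were interleaved. The change was −0.09 ± 0.08 (adjusted p = 0.364). FBXO5 has a transcript GC content of 34.2%, against a median of 48.0% over tested genes, and with GC offsets it was lower (−0.25, adjusted p = 0.00327), while under total-count scaling the value was 0.02. The log2 ratio of FBXO5 to FZR1 counts overlapped between groups (−1.33 ± 0.16 in controls and −1.24 ± 0.18 in treated libraries). A list drawn up for APC/C inhibition and deubiquitination held 5 other tested genes. RASSF1 fell (−0.51 ± 0.09) and 3 did not pass. The 1 that rose, CACUL1 (0.53 ± 0.07), encodes a cullin-domain protein, not an APC/C inhibitor or deubiquitinase. The shares among all tested genes were 29.8% higher and 28.3% lower.

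Levels between genes were compared per kilobase of exon. In controls the order was UBE2S (143 ± 14.5 CPM per kilobase), CDC20 (78.2 ± 2.44), UBE2C (66.5 ± 3.49), PTTG1 (40.5 ± 0.785), ANAPC11 (35.6 ± 4.76), CDC16 (15.2 ± 0.347), FZR1 (12.2 ± 0.503), ESPL1 (11.8 ± 0.312), FBXO5 (8.21 ± 0.775) and CDC27 (7.81 ± 0.664). The control ranges of 3 neighbouring pairs overlapped, PTTG1 with ANAPC11, FZR1 with ESPL1 and FBXO5 with CDC27. In treated cells UBE2S stood at 202 ± 19.8, CDC20 at 110 ± 7.34 and PTTG1 at 59.8 ± 4.45 CPM per kilobase. CDC27, at 13.1 ± 1.45, moved above FZR1 (10.9 ± 0.816), ESPL1 (9.05 ± 0.824) and FBXO5 (7.74 ± 0.395). With the longest transcript as the length, UBE2C (93.6) ranked above CDC20 (88.6) and ESPL1 (15.8) above FZR1 (15.3) in controls. The library kit was not given in the sources used here, and per-length levels assume reads along the whole transcript.

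The spindle checkpoint, which holds CDC20 inactive until chromosomes are attached, was mixed as well. Of 12 genes, 3 were higher, 5 were lower and 4 missed the threshold, around a median of 0.03. The shares among all tested genes were 29.8% higher and 28.3% lower. Total-count scaling gave 6 higher and 4 lower checkpoint genes. In the mitotic checkpoint complex that binds CDC20, MAD2L1 fell from 130.8 ± 9.93 to 109.5 ± 5.13 CPM (−0.26 ± 0.06, adjusted p = 0.00111) and BUB1B from 84.47 ± 6.48 to 70.99 ± 3.59 CPM (−0.25 ± 0.07, adjusted p = 0.00221, or 0.0599 with total-count scaling). BUB3 did not pass (0.03 ± 0.05), but was higher with total-count scaling (0.14, adjusted p = 0.0199). The kinase genes BUB1 (0.83 ± 0.07) and TTK (0.59 ± 0.09) and the kinetochore scaffold gene KNL1 (0.42 ± 0.10) rose. TRIP13, which takes the checkpoint complex apart, fell from 66.33 ± 2.81 to 31.68 ± 1.38 CPM (−1.07 ± 0.07), and KNTC1 fell by 0.51 ± 0.08 on the log2 scale.

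CDC20 therefore rose relative to both of these partners in counts. The log2 ratio of CDC20 to MAD2L1 counts was 0.27 ± 0.15 in controls and 1.01 ± 0.11 in treated libraries, and that of CDC20 to BUB1B was 0.90 ± 0.15 and 1.63 ± 0.11 (SD, n = 4). In both cases all treated libraries were above all controls. These 2 ratios were chosen after the values were seen.

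The substrates of the complex moved in both directions. Of 26 substrate genes, 15 were higher and 7 lower, against 29.8% and 28.3% of all tested genes, around a median of 0.22. Those with the smallest p among the higher were CKAP2 (0.68 ± 0.07), NEK2 (0.58 ± 0.07) and the kinase gene AURKA (0.55 ± 0.06). The cyclin genes CCNB1 (0.20 ± 0.06, adjusted p = 0.00496) and CCNA2 (0.22 ± 0.07, adjusted p = 0.00973) rose by less. The call of CCNA2 ended without control replicate 3 (adjusted p = 0.0577) or MARK3i replicate 1 (adjusted p = 0.0863). Those with the smallest p among the lower were the phosphatase gene CDC25A (−1.19 ± 0.08), the replication licensing gene CDC6 (−1.16 ± 0.07) and the thymidine kinase gene TK1 (−1.02 ± 0.06). The other 4 lower substrates were RRM2 (−0.44 ± 0.06), GMNN, which encodes geminin (−0.30 ± 0.07), SKP2 (−0.28 ± 0.07) and the mitotic kinesin gene KIF22 (−0.18 ± 0.06). The 4 that did not pass were AURKB (0.06 ± 0.06), BIRC5 (0.09 ± 0.05), PRC1 (0.35 ± 0.17) and BARD1 (−0.08 ± 0.12). Of these 8, all but GMNN were named after their values were seen.

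Of 17 genes of cohesin and of its loading, protection and release, 8 were higher and 2 lower, around a median of 0.19. The 8 include WAPL, whose product releases cohesin (0.19 ± 0.07, adjusted p = 0.0304), named after its values were seen. The shares among all tested genes were 29.8% and 28.3%. With GC offsets 6 were higher and 5 lower, and without MARK3i replicate 1 or 3 the lower genes numbered 4. RAD21, the subunit that separase cuts, rose from 355.6 ± 23.0 to 422.3 ± 25.1 CPM (0.25 ± 0.06, adjusted p = 0.000878), a call that ended with GC offsets (0.10, adjusted p = 0.0814). The loader gene NIPBL (0.56 ± 0.07), the protector gene SGO2 (0.58 ± 0.10) and the cohesin subunit gene STAG2 (0.40 ± 0.09) also rose. The core subunit gene SMC1A (−0.41 ± 0.07) and CDCA5, which encodes sororin (−0.28 ± 0.06), fell. SGO1, the guard of centromeric cohesin, did not pass (0.20 ± 0.10, adjusted p = 0.0855), but did with total-count scaling (0.30, adjusted p = 0.01) and upper-quartile scaling (0.23, adjusted p = 0.0465).

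**Figure D5:**
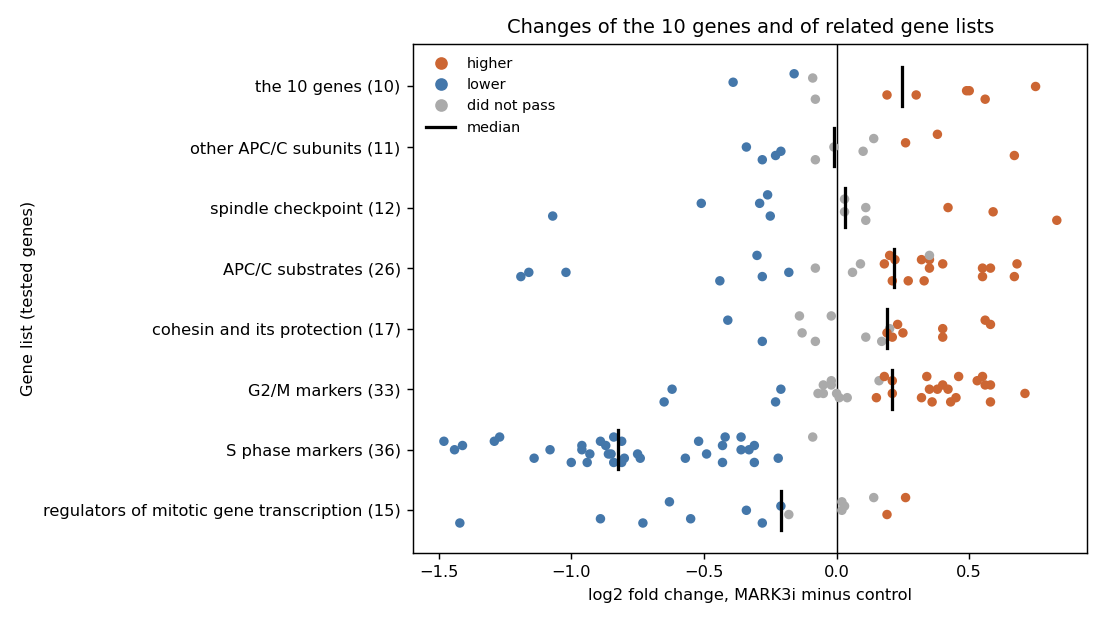
Log2 fold change of every tested gene of 8 lists, with the median as a line and the call as colour. The 10 genes have a median of 0.25, near those of the substrate (0.22), G2/M (0.21) and cohesin (0.19) lists. The medians of the remaining lists are 0.03 (checkpoint), −0.01 (other subunits), −0.21 (regulators) and −0.83 (S phase).

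Markers of cell cycle phase also changed, those of S phase downward and those of G2/M in both directions. Among all tested genes 29.8% were higher and 28.3% lower. Of 33 G2/M marker genes, 20 were higher, 4 lower (2 with total-count scaling) and 9 did not pass, around a median of 0.21. None of the 33 is a member, and 1 (NEK2) is also among the substrates. The 9 include MKI67 (0.0 ± 0.07) and CDK1 (−0.02 ± 0.06), both named after their values were seen. The summed level of the 33 G2/M markers overlapped between groups, at 6341 to 6496 CPM in controls and 6168 to 6939 CPM in treated libraries. Abundant genes weigh most in this sum, among them HMGB2 (1238 CPM in controls and 807.8 in MARK3i) and TUBB4B (805.0 and 1184). Taken singly, 18 of the 33 had treated libraries wholly above the controls and 4 wholly below. The shares among all tested genes were 25.8% above and 25.1% below. CDCA2 rose (0.71 ± 0.08), as did the tubulin gene TUBB4B (0.56 ± 0.06), while the chromatin genes HMGB2 (−0.62 ± 0.05) and CBX5 (−0.65 ± 0.07) fell. Of 36 tested S phase marker genes, 35 were lower and 1 missed the threshold, around a median of −0.83. Their summed level fell from 4441 to 4649 CPM in controls to 2447 to 2800 CPM in treated libraries. UNG (−1.48 ± 0.06), MCM5 (−1.44 ± 0.06) and UHRF1 (−1.41 ± 0.07) had the smallest p among them. The part of cell cycle phase in the members' changes was not tested.

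Several regulators of mitotic transcription were lower. Of 15 genes, 8 were lower and 2 higher, against 28.3% and 29.8% of all tested genes, around a median of −0.21. The list holds both activators and repressors, so these counts give no direction for mitotic transcription. The 2 higher genes became 1 with DESeq2, no filter or thinning. The same held without control replicate 3 or 4 or MARK3i replicate 1 or 3. E2F1 fell from 178.7 ± 4.57 to 66.89 ± 2.56 CPM (−1.42 ± 0.06), MYBL2, whose product B-MYB belongs to the complex that drives G2/M genes, from 126.1 ± 7.86 to 68.09 ± 4.01 CPM (−0.89 ± 0.06), and TFDP1, the dimer partner of E2F proteins, from 177.4 ± 11.8 to 106.6 ± 1.65 CPM (−0.73 ± 0.06). FOXM1, a main activator of mitotic genes, fell from 157.0 ± 3.93 to 123.7 ± 10.1 CPM (−0.34 ± 0.06, adjusted p = 3.84e-05). The other lower genes were RBL1 (−0.63 ± 0.09), E2F4 (−0.55 ± 0.07), LIN9 (−0.28 ± 0.07) and NFYC (−0.21 ± 0.07). LIN37, LIN52, LIN54, E2F7 and NFYB did not pass. All of these were named after their values were seen. RBL2, which encodes p130, rose (0.26 ± 0.07, adjusted p = 0.00306). NFYA, a subunit of the factor that binds CCAAT boxes, was at 0.19 ± 0.08 (adjusted p = 0.0333, up to 0.168 over the alternatives), with overlapping libraries. These are mRNA levels and say nothing of the activity of the factors.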

How the data were processed

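RNA of 22Rv1 cells was sequenced in 4 control and 4 MARK3i libraries, grouped by sample title. The authors deposited whole-number counts for each Ensembl gene, made by alignment to hg38 and featureCounts, per the submitters' processing notes, before testing with DESeq2. The aligner, annotation, versions, library kit and strandedness were not given in the sources used here. Symbols, positions, exon lengths and transcript GC content came from GENCODE release 44 on hg38. Of 58735 identifiers, 528 were not found there and stayed in the fit, with at most 0.0979% of a library's counts.

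All 8 libraries were fitted with edgeR 4.0.16 (R 4.3.3): filterByExpr on the group left 16452 genes, TMM factors were 0.96 to 1.059, and glmQLFit (robust) with glmQLFTest was run on the group, with Benjamini-Hochberg adjustment over all tested genes. SE is the absolute log2 fold change divided by the square root of F. The procedure was tested on simulated counts. Ratios, levels per kilobase and list counts carry no test. No 2 libraries of a group agreed within sampling noise (chi-square per degree of freedom 1.72 to 10.119).

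The members and gene lists were chosen with earlier results of these data known. Named genes were all members, a few set by role, and from each list up to 3 called genes per direction with the smallest p. Overlaps were looked up for genes of at least 1 mean CPM. Alternatives were other scalings (RLE, upper-quartile, total-count), no filter, a filter of 1 CPM in 4 libraries, DESeq2 1.42.0, limma-voom (limma 3.58.1), a block for the replicate number, leaving out each library, GC offsets (centred on their median after a first result without centring was seen), thinning to the lowest total, addition of near copies, and the longest transcript as length. A planned search of protein sequences was not run.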

Additional observations from a re-analysis of the deposited data

Results flagged for a closer look

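One value of a member stood apart within its group. CDC16 was at 77.31 CPM in MARK3i replicate 2, above the other 3 treated libraries, which lay between 72.65 and 72.71 CPM, so that the gap took a share of 0.987 of the group's range. MARK3i replicate 2 is also the most deeply sequenced library (21271127 counts). Without it CDC16 still rose. In all, 32 groups of 4 values were examined (members and ratios), of which chance flags about 1 in 20.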

How the results depend on the processing

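The 6 rises among the members were called under all 19 alternatives, as was the fall of ESPL1. The count of members called lower went from 2 to 1, through the loss of FZR1, with total-count or upper-quartile scaling, with no filter and with thinning, and ranged from 1 to 2 when 1 library was left out (1 without control replicate 3 or 4 or MARK3i replicate 1 or 4). With GC offsets it was 2, but the genes were ESPL1 and FBXO5, since FZR1 stood at 0.06. BUB3 stood at −0.06 with GC offsets, ANAPC11 at 0.05 (0.02 with total counts) and FBXO5 at 0.02 with total counts. Total-count scaling also raised the share of higher genes among all calls from 51.3% to 63.6%. With it 5 of the other subunits were higher and 1 was lower, and 6 checkpoint genes were higher. It also gave 2 lower G2/M markers and 2 higher genes of the inhibitor and deubiquitinase list, which includes CACUL1. GC offsets gave 5 lower cohesin genes, 2 lower inhibitor and deubiquitinase genes and a difference of −0.31 in the log2 ratio of FBXO5 to FZR1 (reported value 0.08). The 2 higher regulators became 1 with DESeq2, no filter or thinning. When 1 library was left out, the range was 2 to 4 for lower cohesin genes (4 without MARK3i replicate 1 or 3), 1 to 2 for higher regulators (1 without control replicate 3 or 4 or MARK3i replicate 1 or 3), 1 to 2 for both directions of the inhibitor list (2 higher without control replicate 1, 2 lower without MARK3i replicate 1) and 0.0 to 0.16 for the ratio of FBXO5 to FZR1. For these changes the cause was not tested, except that total-count scaling leaves out the TMM factors. Those were 0.96 to 0.968 in controls and 1.011 to 1.059 in MARK3i libraries, so without them all log2 changes move upward. Which of the 2 scales is nearer to the RNA in the cells was not tested.

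The replicate number as a block changed no call of a member (6 higher, 2 lower, and 4912 higher and 4684 lower genes in all). The numbers do not pair the samples: deviations of same-numbered libraries correlated at 0.292, −0.316, −0.285 and 0.331. Control replicates 1 and 2 correlated positively with MARK3i replicates 1 and 3 (0.242 to 0.36) and negatively with 2 and 4 (−0.393 to −0.299). Control replicates 3 and 4 showed the reverse (−0.321 to −0.25 and 0.323 to 0.381). The block for the replicate number cuts across this split, and no fit along the split was run. With the longest transcript as length, levels per kilobase of 9 of the 10 members moved by more than the spread between replicates. Across 16360 genes, which share libraries, log2 changes and transcript GC had a rank correlation (Spearman) of −0.194. Counting error limits FBXO5 most, at 358 to 630 counts.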

Other observations

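The control libraries formed pairs, and some members showed it. Chi-square per degree of freedom over all genes was 1.741 between control replicates 1 and 2 and 1.72 between 3 and 4, against 3.503 to 4.728 across them. In replicates 1 and 2 against 3 and 4, ANAPC11 was at 128.7 and 126.3 against 152.0 and 166.3 CPM, UBE2S at 355.6 and 374.7 against 427.9 and 439.3 CPM, and CDC27 at 57.56 and 56.87 against 49.04 and 49.77 CPM. For UBE2S and CDC27 the treated libraries lay beyond both pairs. Deviations of MARK3i replicates 1 and 3 went with those of control replicates 1 and 2. Those of MARK3i replicates 2 and 4 went with control replicates 3 and 4. The labels name no batch.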
